A study of Mus musculus with 16 samples.

Results

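The osteoclast coupling genes are 10 genes through which bone-forming and stromal cells call up osteoclasts, or that osteoclasts need to form and to resorb bone. They are Tnfsf11, Tnfrsf11a, Tnfrsf11b, Csf1, Acp5, Ctsk, Calcr, Nfatc1, Ocstamp and Dcstamp. They were chosen by name, with earlier results of these data known. All 10 were among the 20056 gene symbols of the table of normalized counts. The libraries came from sorted mouse MSCs (mesenchymal stem cells) and OBs (osteoblasts) of miR-9-1-deficient mice, made by CRISPR/Cas9 editing, and of wild-type mice. There were 4 libraries in each of 4 groups, deficient OB, wild-type OB, deficient MSC and wild-type MSC, so 16 in all. The deletion was made in the genome, and no Cre or cell-type-specific driver is named. The strain, sex, age, founder line and sort gate were not given in the sources used here. Each label carries a number that recurs in 1 MSC and 1 OB library, and libraries are called here by letter, A to D for the wild-type numbers and E to H for the deficient ones. The labels do not say that the libraries came from separate cell preparations, so p-values measure only the spread between these libraries.

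Osteoclasts are multinucleated cells that dissolve bone and arise from monocyte and macrophage precursors in the marrow. Stromal and bone-forming cells supply them with M-CSF, made from Csf1, which keeps the precursors alive through the receptor Csf1r, and with RANKL, made from Tnfsf11, which binds the receptor RANK, made from Tnfrsf11a, and turns on the transcription factor NFATc1. Osteoprotegerin, made from Tnfrsf11b, is a soluble decoy receptor that captures RANKL. NFATc1 in turn switches on the fusion proteins DC-STAMP and OC-STAMP, the acid phosphatase TRAP made from Acp5, cathepsin K made from Ctsk, and the calcitonin receptor made from Calcr.

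The microRNA that the deleted locus encodes is shown first, with the stretch of Csf1 that its seed could pair with, since a microRNA acts mainly through seed matches in 3′ UTRs. Its mature strand, miR-9-5p, is given from RefSeq (GRCm38.p6) with the seed, bases 2 to 8, in capitals. The locus Mir9-1 lies on chromosome 3, with this strand at chr3:88215613-88215635 on the plus strand, and Mir9-2 and Mir9-3 on chromosomes 13 and 7 encode the same mature sequence.
miR-9-5p: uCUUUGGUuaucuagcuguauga
In each gene, the longest 3′ UTR annotated in GENCODE M21 (GRCm38/mm10) was searched for the 7 letters complementary to the seed. Exactly 1 match was found, in Csf1 on the minus strand of chromosome 3, at chr3:107742964-107742970. It is printed with 10 bases on either side and the match in capitals.
Csf1 match: tagactctcaACCAAAGagaaagggct
The other 9 genes held none, and 1 of 10 genes compares with 2569 of 21685 genes (11.8%) that held the match. A match is a description of letters and not evidence of binding.

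Promoters are shown for the 2 ligands and the 2 resorption enzymes, because Tnfsf11, Csf1 and Ctsk moved together across the OB libraries, where Acp5 did not move with them. The r of Ctsk's deviations from its group means over 8 libraries was 0.95 with Tnfsf11 and 0.89 with Csf1 in OBs, against 0.17 with Tnfsf11 and 0.26 with Csf1 in MSCs. Tnfsf11 and Csf1 moved together in both cell types, with r of 0.95 in OBs and 0.81 in MSCs. Nfatc1, whose promoter is not shown, had r of 0.62 to 0.80 with Tnfsf11, Csf1 and Ctsk in OBs. RefSeq (GRCm38.p6) had promoter entries for 6 of the 10 genes, each from 250 bases before to 50 after a start site. Both strands were searched for 6 motifs, and capitals mark the matches. For the factor AP-1 the motif was TGANTCA. The Mitf factor was looked for by the E-box CACGTG and by its variant, spelled TCATGTG. The RUNX motif was TGTGGT, the ETS core that PU.1 binds was GAGGAA, and the TATA box was searched as TATAAA. Tnfsf11 is given from chr14:78307994-78308293 on the minus strand, Csf1 from chr3:107760420-107760719 on the minus strand, Ctsk from chr3:95498960-95499259 on the plus strand, and Acp5 from chr9:22130549-22130848 on the minus strand, the only 1 of its 3 entries with a match.
Tnfsf11: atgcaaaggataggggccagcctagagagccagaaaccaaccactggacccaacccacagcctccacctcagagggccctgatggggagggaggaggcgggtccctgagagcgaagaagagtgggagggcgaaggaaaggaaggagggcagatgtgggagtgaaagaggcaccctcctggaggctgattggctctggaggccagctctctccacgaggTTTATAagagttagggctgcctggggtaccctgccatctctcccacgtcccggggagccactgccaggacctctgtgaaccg
Csf1: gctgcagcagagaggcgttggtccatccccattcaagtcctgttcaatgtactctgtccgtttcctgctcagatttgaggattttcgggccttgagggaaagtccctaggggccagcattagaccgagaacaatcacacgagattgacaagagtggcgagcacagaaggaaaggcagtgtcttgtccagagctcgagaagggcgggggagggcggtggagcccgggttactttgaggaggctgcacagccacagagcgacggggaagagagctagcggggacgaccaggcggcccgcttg
Ctsk: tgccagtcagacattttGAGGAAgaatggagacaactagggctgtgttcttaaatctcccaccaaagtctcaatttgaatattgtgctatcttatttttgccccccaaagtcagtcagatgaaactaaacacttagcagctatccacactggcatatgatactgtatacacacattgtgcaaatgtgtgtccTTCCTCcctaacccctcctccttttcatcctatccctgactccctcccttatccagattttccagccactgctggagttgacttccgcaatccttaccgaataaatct
Acp5: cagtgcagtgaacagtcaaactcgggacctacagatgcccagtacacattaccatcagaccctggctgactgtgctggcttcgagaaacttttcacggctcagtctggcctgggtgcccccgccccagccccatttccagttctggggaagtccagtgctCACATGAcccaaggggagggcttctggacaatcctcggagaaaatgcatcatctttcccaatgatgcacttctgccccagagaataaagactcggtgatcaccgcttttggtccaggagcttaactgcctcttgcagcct
Tnfsf11 held a TATA box on the opposite strand, 32 bases before the start site, and 13.6% of 32851 promoters held one on either strand. Ctsk held 2 PU.1 cores, which 28.3% of promoters held at least once. Acp5 held the E-box variant TCATGTG on the opposite strand, 90 bases before the start site, a match found in 3.77% of promoters. Csf1 held none of the 6 motifs, of which AP-1 was in 7.81%, CACGTG in 7.15% and RUNX in 16.8% of promoters. No motif was common to Tnfsf11, Csf1 and Ctsk.

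Whole reads could be recovered from the deposited values, 15543693 to 18962771 per OB library and 10148197 to 14246986 per MSC library. A gene with 0 reads may still have up to 3 reads' worth, which is 1.95 to 2.36 normalized counts in OBs and 3.52 to 4.51 in MSCs, counting error only. Mir9-1, the targeted locus, had 3 reads over the deficient OB libraries, all in 1 of 4, against 27 over the wild-type OB libraries, and 0 in every MSC library, so poly(A) reads checked the label only weakly. The list of osteoblast markers stood lower in OB than in MSC libraries, with 8 of 13 tested genes lower and 1 higher in wild-type OBs, and all 10 erythroid markers were higher in wild-type OBs. Beside them, 35.5% of all tested genes were lower and 34.4% higher in wild-type OBs (limma adjusted p under 0.05). MSC libraries A, E and F had Xist at 291 to 392 and Ddx3y at 1848 to 3355 normalized counts, while the other 5 MSC libraries had Xist at 11937 to 14158 and Ddx3y at 29.8 to 78.1. Every OB library held both, with Xist at 3720 to 8053 and Ddx3y at 649 to 1939, and OB libraries A, E and F were lowest in Xist (3720 to 4652) and highest in Ddx3y (1167 to 1939) among the OB libraries. The labels do not say whether a number names 1 animal or whether animals were pooled. Deficient OB libraries E and F carried the MSC stroma list at a mean log2 level of 9.65 and 10.11, against 7.46 to 8.57 in the other 6 OB libraries. Deficient MSC libraries G and H carried the skeletal muscle list at 5.71 and 7.78, against 2.81 to 4.71 in the other 6 MSC libraries. Results that rest on these libraries are given with and without them.

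The genes fell into a well detected set of 6, a weakly detected receptor and 3 genes at the limit of detection in most libraries. Per kilobase of exon, Ctsk was the most abundant in every group, at a mean of 393 ± 260.4 normalized counts per kb in deficient OBs, 356 ± 70.8 in wild-type OBs, 3407 ± 1411 in deficient MSCs and 4072 ± 656 in wild-type MSCs (SD, n = 4 each). In the MSC groups its range lay above that of every other gene. In the OB groups its range overlapped that of Nfatc1, next at 241 ± 43.4 per kb in deficient and 275 ± 41.0 in wild-type OBs. Below Ctsk in deficient MSCs, the order of mean levels per kb was Tnfrsf11b, Csf1, Nfatc1, Tnfsf11 and Acp5, and in wild-type MSCs Tnfrsf11b, Nfatc1, Csf1, Tnfsf11 and Acp5. Neighbours in that order overlapped in range, except Tnfsf11 and Acp5 in deficient MSCs. In deficient OBs the order after Nfatc1 was Csf1, Acp5, Tnfrsf11b and Tnfsf11, with overlap between neighbours. In wild-type OBs it was Tnfrsf11b, Acp5, Csf1 and Tnfsf11, where Nfatc1 lay apart from Tnfrsf11b and Csf1 from Tnfsf11. Tnfrsf11a stood at 2.44 to 3.65 per kb over the group means, and Calcr, Ocstamp and Dcstamp at 0 to 3.75 per kb. The highest of these was Calcr in wild-type MSCs, where its mean lay above that of Tnfrsf11a.

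**Figure D1:**
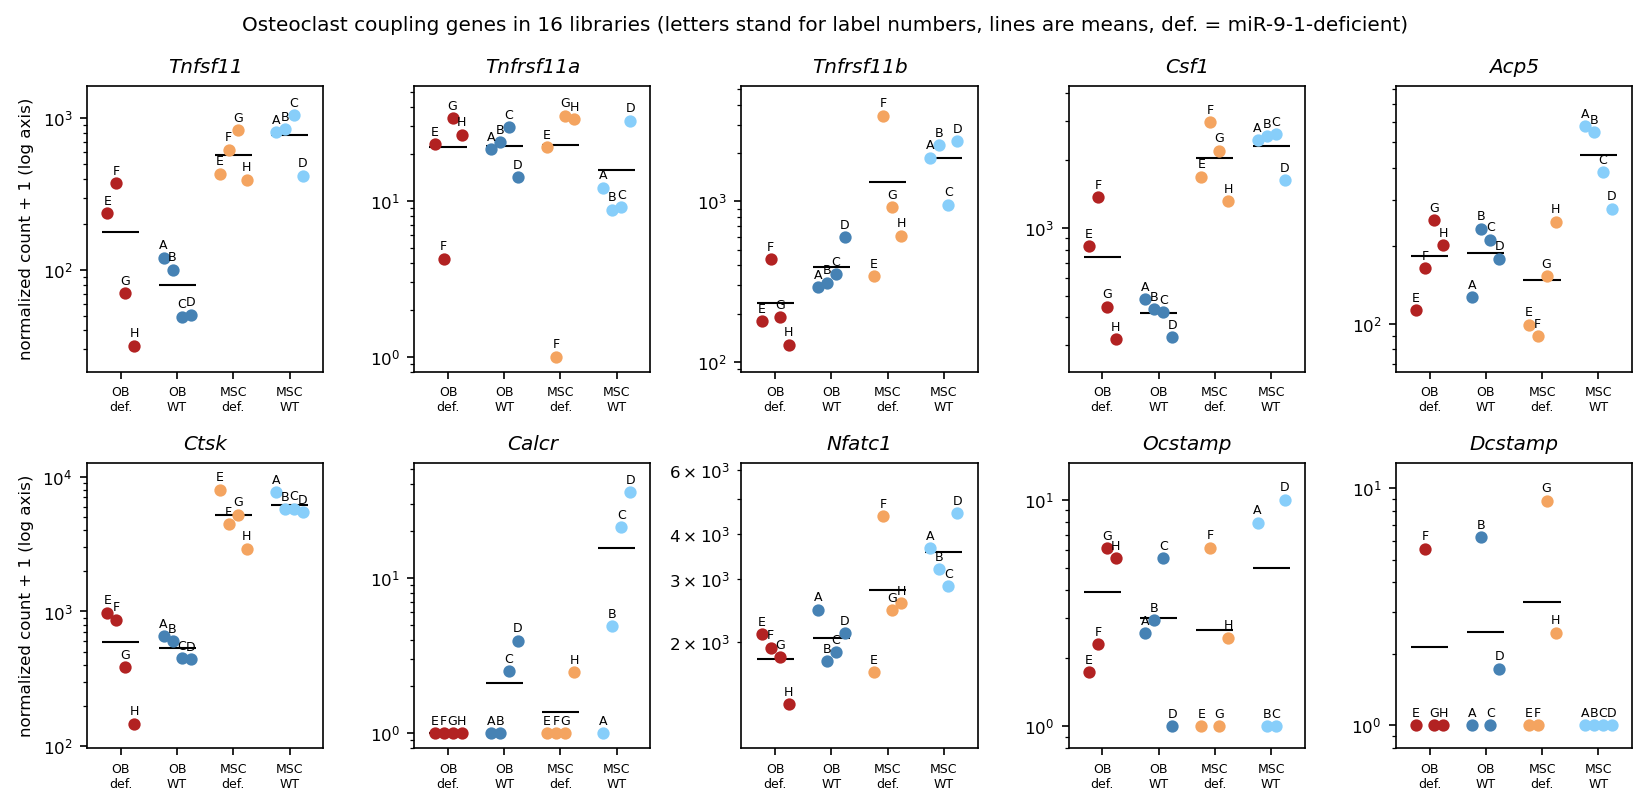
Each panel plots normalized count plus 1 on a log axis for 1 gene, with deficient OB, wild-type OB, deficient MSC and wild-type MSC libraries from left to right, points lettered by label number and lines at the group means. Tnfsf11, Tnfrsf11b, Csf1 and Ctsk stand lower in OB than in MSC libraries, and Acp5 in deficient MSCs lies at 88.9 to 247, below the 277 to 576 of wild-type MSCs.

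In MSCs, 1 of the coupling genes differed between genotypes. Acp5, the tartrate-resistant acid phosphatase used as a stain for osteoclasts, was 3.04-fold lower in deficient MSCs. The other 6 genes that passed the filter on low values did not pass the test. All 7 fitted differences were negative, but that of Tnfrsf11a, -0.07, was positive with a pseudocount of 5 (0.24), quantile normalization (0.20), edgeR (0.60) and without library F (1.15) or D (0.36), and its mean was higher in deficient MSCs. The genotype comparison fitted log2(normalized count + 1) with limma over genes reaching 10 normalized counts in at least 4 of the 8 libraries, and a call needed an adjusted p under 0.05 (Benjamini-Hochberg) over all genes tested. By that rule 0.561% of 14964 genes were lower and 1.06% passed in either direction, beside 1 of 7 coupling genes. The median log2 difference was -0.43 over the 7 genes and -0.03 over all genes, of which 52.7% had negative differences.

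Acp5 had 98.6, 88.9, 152 and 247 normalized counts in deficient MSC libraries E, F, G and H, against 576, 545, 383 and 277 in wild-type MSC libraries A, B, C and D. The groups did not overlap, though the highest deficient library, H, came close to the lowest wild-type one, D; 6.1% of all genes were lower without overlap. Its log2 difference was -1.66 ± 0.35 (SE, 95% interval -2.42 to -0.90, limma adjusted p = 0.0496), with all 4 deficient libraries below all 4 wild-type ones. Without overlap, the same order must hold within any split of these libraries. A split into those low in Xist (E and F against A) and those high in it (G and H against B, C and D) therefore adds nothing. The part of what Xist follows in the Acp5 difference was not tested. That adjusted p lay at the threshold. It was 0.122, 0.143, 0.118 and 0.0774 without library A, B, C and D, 0.120, 0.119 and 0.0729 without E, G and H, and 0.190 without the muscle-high pair G and H, where the log2 difference was -2.18. edgeR's quasi-likelihood test on the recovered reads gave an adjusted p of 0.0579, DESeq2 gave 8.36e-04, and the range over 16 alternatives was 8.36e-04 to 0.190. The gene lies at chr9:22126727-22135711 (GRCm38/mm10), where 137 of its 2030 exon bases also belong to an exon of 6530413G14Rik on the opposite strand. The labels do not say that strand was kept, so reads there could belong to either gene.

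In these sorted but bulk libraries, fewer cells of a type and less RNA per cell cannot be told apart. Beside the lower Acp5, the B-lineage marker list stood at a mean log2 level of 3.59 to 4.71 in deficient MSCs against 5.89 to 6.94 in wild-type MSCs, and the osteoblast list at 8.89 to 9.82 in deficient against 10.28 to 10.39 in wild-type MSCs. In the monocyte and macrophage list 0 of 20 tested genes passed, 15 differences were negative with a median of -0.68, and the summed level ranged over 6965 to 11966 normalized counts in deficient and 7787 to 20194 in wild-type MSCs. Within that list Mpeg1, a macrophage protein, ranged over 215 to 557 in deficient and 559 to 2255 in wild-type MSCs, and Lyz2, a lysozyme of myeloid cells, averaged 2512 ± 1248 in deficient and 4960 ± 2275 in wild-type MSCs. Other macrophage genes had the higher mean in deficient MSCs. Cd68 averaged 440 ± 92.4 in deficient and 382 ± 79.8 in wild-type MSCs, and C1qa 76.2 ± 92.3 and 49.3 ± 44.1. In the neutrophil list 0 of 12 genes passed and 11 differences were negative, with a median of -0.56. Of the osteoclast lists, 16 of 20 resorption and 9 of 13 fusion genes had negative differences, with medians of -0.15 and -0.18. Over all genes tested in MSCs, 52.7% of differences were negative, with a median of -0.03. Mmp9, a gelatinase that osteoclasts make, averaged 1573 ± 565 in deficient and 1840 ± 875 in wild-type MSCs. Oscar, an osteoclast receptor, was at 0 in 1 of 4 deficient and 2 of 4 wild-type MSC libraries and nowhere exceeded 10.5. Atp6v0d2, a proton pump subunit needed for fusion, ranged over 24.5 to 193 in deficient and 16.5 to 88.8 in wild-type MSCs. The part of these lists in the Acp5 difference was not tested.

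The ligands and the decoy receptor did not pass in MSCs. Tnfsf11 had 430, 620, 827 and 392 normalized counts in deficient MSC libraries E to H, against 805, 843, 1049 and 416 in wild-type libraries A to D. The lowest libraries of both groups lay side by side and the groups overlapped, with a log2 difference of -0.44 ± 0.30 (95% interval -1.11 to 0.22, limma adjusted p = 0.401). Tnfrsf11b had 343, 3405, 923 and 609 in deficient libraries, against 1871, 2227, 950 and 2365 in wild-type ones. Library F was the highest of all 8 and the other 3 deficient libraries were the lowest of all, so the fit gave -0.96 ± 0.57 (interval -2.21 to 0.29, limma adjusted p = 0.341). Without F, Tnfrsf11b was lower by the test, at -1.60 (limma adjusted p = 0.0162), where 15.3% of 14775 genes passed in either direction, against 1.06% with all 8 libraries. Csf1 had 1687, 2943, 2205 and 1315 in deficient libraries, against 2458, 2552, 2606 and 1629 in wild-type ones. These values overlapped throughout, at -0.22 ± 0.24 (interval -0.75 to 0.31, limma adjusted p = 0.612), for the only gene of the 10 whose 3′ UTR held a miR-9-5p seed match.

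The transcription factor, the second enzyme and the receptor did not pass either. Nfatc1, the factor that RANK signalling turns on, had 1650, 4464, 2454 and 2560 normalized counts in deficient MSC libraries, against 3650, 3184, 2854 and 4562 in wild-type ones. Library F again stood with the wild-type libraries while E, G and H lay below all of them; the log2 difference was -0.43 ± 0.26 (interval -1.0 to 0.15, limma adjusted p = 0.355), and without F, beside the same 15.3% of genes, it was -0.69 (adjusted p = 0.0402). Ctsk, the collagen-degrading cathepsin that periosteal and stromal progenitors also express, had 8012, 4456, 5220 and 2918 in deficient libraries, against 7632, 5743, 5778 and 5476 in wild-type ones. Library E was the highest of the 8 and the groups overlapped, at -0.34 ± 0.26 (interval -0.90 to 0.23, limma adjusted p = 0.459). Tnfrsf11a, the RANK receptor on osteoclast precursors, had 21.1, 0, 34.0 and 32.1 in deficient libraries, against 11.1, 7.77, 8.10 and 31.6 in wild-type ones. At this depth no difference was detectable, since its interval ran from -2.60 to 2.45.

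Calcr, Ocstamp and Dcstamp did not pass the filter on low values in any comparison and were not tested. Calcr, the receptor for calcitonin on osteoclasts, had 0, 0, 0 and 1.46 normalized counts in deficient MSCs, against 0, 3.88, 20.3 and 34.6 in wild-type MSCs, and 0 in all deficient OBs, against 0, 0, 1.51 and 2.94 in wild-type OBs. Wild-type MSC libraries C and D held 15 and 23 reads of it, and none of the other libraries more than 4. Ocstamp, which encodes the fusion protein OC-STAMP, ranged over 0.735 to 5.12 in deficient OBs, 0 to 4.52 in wild-type OBs, 0 to 5.15 in deficient MSCs and 0 to 9.02 in wild-type MSCs. Dcstamp, which encodes DC-STAMP, was at 0 in 3 of 4 deficient OB libraries, 2 of 4 wild-type OB libraries, 2 of 4 deficient MSC libraries and all 4 wild-type MSC libraries, and nowhere exceeded 7.84.

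In OBs, 0 of the 7 tested coupling genes passed between genotypes. Beside them stood 0.0281% of 14229 genes passing in either direction (limma, 4 genes, and 1274 genes at an unadjusted p under 0.05). At an unadjusted p under 0.05 there was 1 coupling gene, Tnfrsf11b, and edgeR and DESeq2 called 0 as well. Among the 7, 5 differences were negative, beside 56.2% of those over all genes. Their median was -0.18 against -0.02 over all genes, and 0 of the 7 had groups without overlap, beside 5.47% of all genes. The ligands spread widely among the deficient libraries. The coefficient of variation of Tnfsf11 was 89.1% in deficient and 45.2% in wild-type OBs, and that of Csf1 was 63.8% in deficient and 15.9% in wild-type OBs.

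Tnfsf11 had 237, 373, 69.4 and 30.8 normalized counts in deficient OB libraries E to H, against 119, 99.5, 48.2 and 49.9 in wild-type OB libraries A to D. Libraries E and F were the highest of the 8 and H the lowest, giving a log2 difference of 0.68 ± 0.71 (95% interval -0.91 to 2.26, limma adjusted p = 0.795). Csf1 had 826, 1368, 444 and 319 in deficient libraries, against 482, 433, 420 and 324 in wild-type ones. Again E and F were highest and H lowest, at 0.62 ± 0.39 (interval -0.24 to 1.49, limma adjusted p = 0.655). Ctsk had 976, 869, 387 and 147 in deficient libraries, against 656, 600.2, 449.8 and 444 in wild-type ones. Here E and F lay above and G and H below all wild-type libraries, at -0.18 ± 0.52 (interval -1.33 to 0.98, limma adjusted p = 0.940).

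These 3 genes followed the level of the MSC stroma list, 15 genes of which none is a coupling gene. The list stood at a mean log2 level of 9.65, 10.11, 8.57 and 7.46 in deficient OB libraries E to H, against 8.56, 8.22, 7.98 and 7.81 in wild-type libraries A to D. Among the deficient libraries Tnfsf11 and Csf1 took the order F, E, G, H of the list, and Ctsk the order E, F, G, H. Among the wild-type libraries Csf1 and Ctsk took the list's order A, B, C, D, and Tnfsf11 the order A, B, D, C. Without libraries E and F the log2 differences were -0.65 for Tnfsf11, -0.13 for Csf1 and -1.15 for Ctsk, so the first pair changed sign, and none passed (limma adjusted p = 0.686, 0.862 and 0.207). OB libraries A, E and F, the highest in these 3 genes within their genotypes, were also the lowest in Xist and highest in Ddx3y. The part of the stroma genes, or of what Xist and Ddx3y follow, in these values was not tested.

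**Figure D2:**
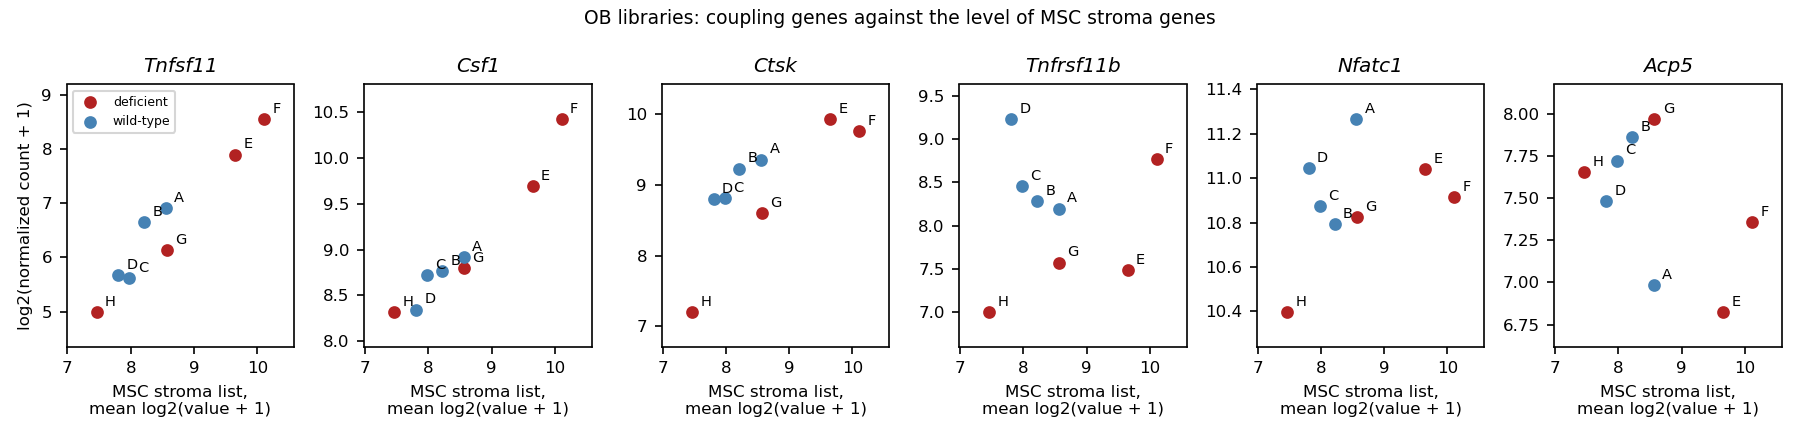
Each panel plots log2(normalized count + 1) of 1 gene against the mean log2 level of 15 MSC stroma genes in the 8 OB libraries, deficient in red and wild-type in blue, with letters for label numbers. Tnfsf11, Csf1 and Ctsk are highest in deficient libraries E and F, where the stroma level is 9.65 and 10.11, and lowest in H, where it is 7.46, while Acp5 is lowest in E.

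The decoy receptor, the transcription factor and the remaining genes did not pass in OBs either. Tnfrsf11b had 179, 435, 189 and 127 normalized counts in deficient OB libraries, against 292, 310.2, 350.3 and 599.8 in wild-type ones. Deficient libraries E, G and H lay below every wild-type one and F among them, at -0.83 ± 0.36 (interval -1.64 to -0.03, limma adjusted p = 0.540). Acp5 had 112, 163, 249 and 201 in deficient libraries, against 126, 232, 210.2 and 178 in wild-type ones, which overlapped fully at -0.06 ± 0.27 (interval -0.66 to 0.53, limma adjusted p = 0.961). Nfatc1 had 2105, 1928, 1813 and 1347 in deficient libraries, against 2461, 1771, 1877 and 2113 in wild-type ones, at -0.20 ± 0.14 (interval -0.53 to 0.12, limma adjusted p = 0.697). Its groups overlapped, with H the lowest of the 8. The r of its deviations from group means in OBs was 0.80 with Ctsk, 0.72 with Tnfsf11 and 0.62 with Csf1. Tnfrsf11a had 22.0, 3.26, 32.9 and 25.6 in deficient libraries, against 20.4, 22.8, 28.6 and 13.2 in wild-type ones, with an interval of -1.73 to 1.09. Library F was low for Tnfrsf11a in OBs and had 0 reads of it in MSCs.

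The ratio of Tnfsf11 to Tnfrsf11b, RANKL to its decoy, is often read as the drive to osteoclast formation, and is given per library with no test. It was 1.33, 0.858, 0.367 and 0.243 in deficient OB libraries E to H, against 0.409, 0.321, 0.138 and 0.0832 in wild-type OB libraries A to D. The median was 0.612 in deficient and 0.229 in wild-type OBs, and the groups overlapped. In MSCs it was 1.25, 0.182, 0.897 and 0.643 in deficient libraries, against 0.430, 0.378, 1.10 and 0.176 in wild-type ones. There too the groups overlapped, with medians of 0.770 in deficient and 0.404 in wild-type MSCs. The ratio of Ctsk to Acp5 was 81.3, 50.1, 34.4 and 11.8 in deficient MSCs, against 13.3, 10.5, 15.1 and 19.8 in wild-type MSCs. Libraries E, F and G lay above all wild-type libraries and H below 3 of the 4. In OBs it was 8.69, 5.34, 1.55 and 0.730 in deficient libraries, against 5.22, 2.59, 2.14 and 2.50 in wild-type ones, so it spread wider than in the wild-type libraries on both sides.

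**Figure D3:**
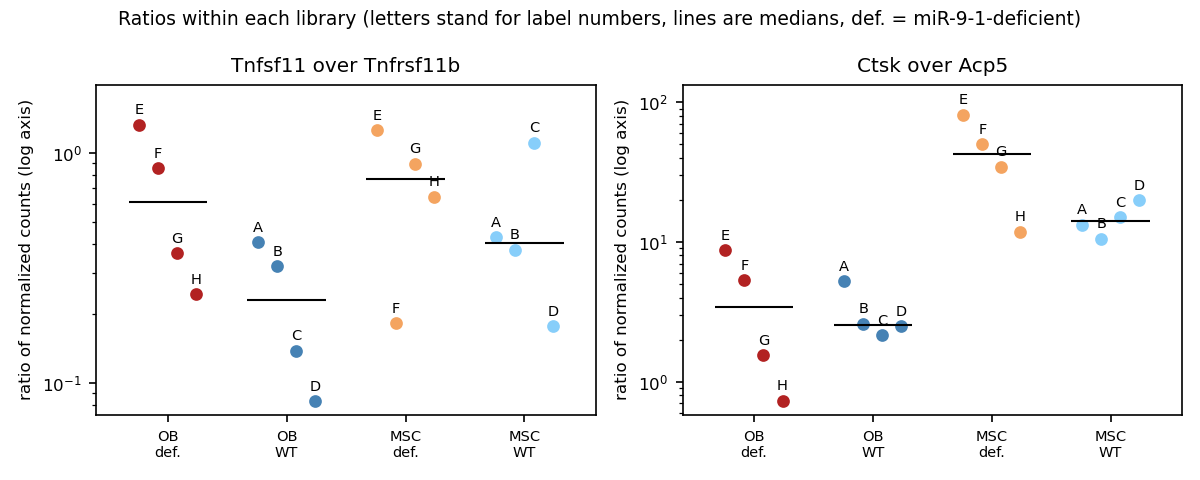
The left panel plots Tnfsf11 over Tnfrsf11b and the right panel Ctsk over Acp5, as ratios of normalized counts on a log axis, for deficient OB, wild-type OB, deficient MSC and wild-type MSC libraries from left to right, with lines at the medians. The ratio of Ctsk to Acp5 has a median of 42.3 in deficient and 14.2 in wild-type MSCs, and deficient library H is among the wild-type ones.

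In wild-type mice, 6 of the 7 tested coupling genes were lower in OBs than in MSCs. Ctsk was 11.5-fold lower, Tnfsf11 9.82-fold, Csf1 5.57-fold, Tnfrsf11b 4.77-fold, Acp5 2.39-fold and Nfatc1 1.73-fold, while Tnfrsf11a did not pass. Of all 14696 genes, 35.5% were lower by the same rule and 32.9% were lower without overlap, beside 6 of 7 coupling genes by each. The median log2 difference was -2.23 over the 7 genes and 0.01 over all genes. In deficient mice 4 of the 7 were lower in OBs, Ctsk, Csf1, Tnfrsf11b and Tnfsf11, beside 30.6% of 14692 genes. There 2 of the 7, Ctsk and Tnfsf11, were lower without overlap, beside 27.1% of genes, and the median was -1.62 against -0.02 over all genes. These comparisons use the same libraries as those between genotypes, so their values are not independent of them. The cell type markers differed too. In wild-type OBs 10 of 11 blood progenitor and 10 of 10 erythroid markers were higher, beside 34.4% of all genes. Of the osteoblast markers 8 of 13 were lower and 1 higher, and of the MSC stroma markers 14 of 15 were lower. The part of cell composition in the differences of the coupling genes was not tested.

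Both ligands were lower in OBs in either genotype. Tnfsf11 averaged 79.3 ± 35.8 normalized counts in wild-type OBs and 778 ± 264 in wild-type MSCs, a log2 difference of -3.32 ± 0.35 (limma adjusted p = 9.31e-06). In deficient mice it averaged 178 ± 158 in OBs and 567 ± 200.2 in MSCs, at -2.19 ± 0.69 (adjusted p = 0.0199), with no overlap in either genotype. Leaving out deficient library G from MSCs or from OBs gave adjusted p = 0.0572 and 0.0577, edgeR gave 0.0563, and leaving out the muscle-high MSC pair G and H gave 0.104. Csf1 averaged 415 ± 66.0 in wild-type OBs and 2311 ± 459 in wild-type MSCs, at -2.46 ± 0.17 (adjusted p = 2.79e-07). In deficient mice it averaged 739 ± 472 in OBs and 2038 ± 706 in MSCs, at -1.62 ± 0.43 (adjusted p = 0.00901), with OB library F reaching the MSC range. Without the stroma-high OB libraries E and F the differences in deficient mice were -3.52 for Tnfsf11 and -2.37 for Csf1.

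The decoy receptor and both enzymes were lower in wild-type OBs too. Tnfrsf11b averaged 388 ± 143 normalized counts in wild-type OBs and 1853 ± 637 in wild-type MSCs, at -2.23 ± 0.30 (limma adjusted p = 5.39e-05). In deficient mice it averaged 232 ± 138 in OBs and 1320 ± 1410 in MSCs, at -2.11 ± 0.64 (adjusted p = 0.0175, and 0.0630 without MSC libraries G and H), with OB library F above MSC library E. Ctsk averaged 538 ± 107 in wild-type OBs and 6157 ± 992 in wild-type MSCs, at -3.52 ± 0.15 (adjusted p = 1.28e-08), and in deficient mice 595 ± 394 in OBs against 5152 ± 2134 in MSCs, at -3.36 ± 0.56 (adjusted p = 7.35e-04). Acp5 averaged 186 ± 46.0 in wild-type OBs and 445 ± 141 in wild-type MSCs, at -1.23 ± 0.26 (adjusted p = 0.00150). In deficient mice Acp5 averaged 181 ± 58.0 in OBs and 146 ± 72.4 in MSCs, at 0.37 ± 0.36 (interval -0.45 to 1.18, adjusted p = 0.404).

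Nfatc1 differed least among the genes that passed. It averaged 2055 ± 306 normalized counts in wild-type OBs and 3562 ± 742 in wild-type MSCs, at -0.78 ± 0.15 (limma adjusted p = 6.62e-04), and in deficient mice 1798 ± 324 in OBs against 2782 ± 1193 in MSCs, at -0.56 ± 0.27 (adjusted p = 0.103). Without deficient MSC library E the difference in deficient mice was -0.78 and passed (adjusted p = 0.0220). Tnfrsf11a averaged 21.3 ± 6.38 in wild-type OBs and 14.6 ± 11.4 in wild-type MSCs, at 0.69 ± 0.56 (adjusted p = 0.286). In deficient mice it averaged 20.9 ± 12.6 in OBs and 21.8 ± 15.6 in MSCs, at 0.45 ± 1.19 (adjusted p = 0.766). The fitted difference is positive although the OB mean is the lower of the pair; MSC library F had 0 reads, and without it the difference was -0.78. The groups overlapped in both genotypes.

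**Figure D4:**
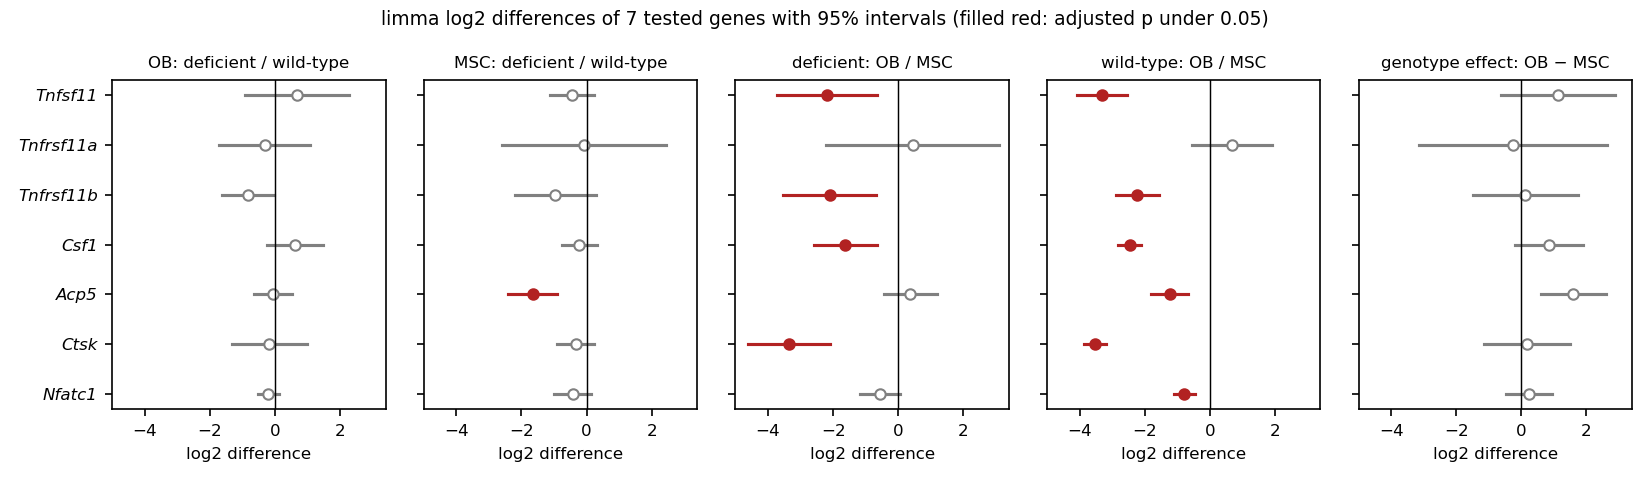
Each panel plots the limma log2 difference of the 7 tested genes with its 95% interval, for deficient over wild-type OBs, deficient over wild-type MSCs, OBs over MSCs in deficient mice, OBs over MSCs in wild-type mice, and the genotype effect in OBs minus that in MSCs; filled red marks an adjusted p under 0.05. Acp5 alone passes between genotypes, in MSCs at -1.66, and 4 and 6 genes pass between cell types in deficient and wild-type mice.

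The genotype effects of OBs and MSCs were compared in 1 fit of all 16 libraries. None of the 7 genes passed, where 0.0129% of 15556 genes did (limma, 2 genes, and 1786 at an unadjusted p under 0.05), edgeR called 0 of the 7, and DESeq2 0 of the 6 to which it gave an adjusted p. Acp5 had the largest difference of effects, 1.60 ± 0.47 on the log2 scale (95% interval 0.60 to 2.60, unadjusted p = 0.00374, adjusted p = 0.280), and was the only 1 of the 7 with an unadjusted p under 0.05. Tnfsf11 differed by 1.12 ± 0.83 (interval -0.64 to 2.89, adjusted p = 0.623) and Csf1 by 0.84 ± 0.49 (interval -0.20 to 1.89, adjusted p = 0.527). The lower Acp5 of deficient MSCs was thus not shown to differ from the effect in OBs over all genes tested.

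Partners of Csf1 gave a further view of the M-CSF pathway. Csf1r, the receptor that marks osteoclast precursors and macrophages, had 171, 99.2, 154 and 297 normalized counts in deficient MSCs, against 278, 386, 419 and 128 in wild-type MSCs. The groups overlapped, at -0.72 ± 0.41 (limma adjusted p = 0.319). In OBs it averaged 259 ± 47.4 in deficient and 302 ± 23.7 in wild-type libraries, at -0.24 ± 0.14 (adjusted p = 0.645), and it did not pass between wild-type OBs and MSCs either (0.13 ± 0.32, adjusted p = 0.725). Il34, the second ligand of that receptor, averaged 41.6 ± 7.08 in wild-type OBs and 375 ± 88.5 in wild-type MSCs, at -3.12 ± 0.24 (adjusted p = 6.58e-07). In deficient mice Il34 averaged 94.6 ± 82.3 in OBs and 276 ± 32.4 in MSCs, at -2.04 ± 0.64 (adjusted p = 0.0197). Both ligands were thus lower in OBs, and the receptor was not shown to differ.

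Genes around the 10 were read from lists of the pathway, which were chosen by function and share members with the 10. Between genotypes in MSCs, 0 of 8 genes of the RANKL and M-CSF list, 0 of 34 of RANK signalling, 0 of 14 osteoclast transcription factors and repressors, 0 of 13 fusion genes and 0 of 27 regulators of RANKL and OPG in stroma passed. Acp5 was the 1 of 20 resorption genes that passed, and Igf1, a growth factor that bone cells release and that also feeds osteoclasts, the 1 of 19 coupling and guidance factors. Over the 131 tested genes of the 7 lists, 38 had an unadjusted p under 0.05, beside 22.8% of all genes (3405). edgeR called 2 (Igf1 and Lgr4), beside 0.982% of all genes, and DESeq2 16, beside 7.99%. Igf1 averaged 1399 ± 587 normalized counts in deficient and 4152 ± 924 in wild-type MSCs, at -1.64 ± 0.27 (limma adjusted p = 0.0269), without overlap. Lgr4, a receptor that also binds RANKL, averaged 1312 ± 405 in deficient and 652 ± 82.6 in wild-type MSCs, at 0.97 ± 0.20, and just missed the threshold (adjusted p = 0.0516). In OBs 0 of 128 tested genes of these 7 lists passed with limma and 0 with edgeR, 2 (Camk4 and Cst3) passed with DESeq2, beside 1.36% of all genes, and 14 had an unadjusted p under 0.05 with limma, beside 8.95%. Cst3, the cathepsin inhibitor cystatin C, was at 1.28 ± 0.26 (adjusted p = 0.178), and Camk4, a kinase upstream of Nfatc1, at 1.11 ± 0.28 (adjusted p = 0.271).

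Between wild-type OBs and MSCs, lists of genes that stromal cells use were mostly lower in OBs: 21 of 27 regulators of RANKL and OPG were lower and 1 higher, 15 of 19 coupling and guidance factors lower and 2 higher, and 5 of 8 genes of the RANKL and M-CSF list lower and 1 higher. Their list medians were -1.43, -2.34 and -2.09, against 0.01 over all genes. Of all genes, 35.5% were lower and 34.4% higher. The MSC stroma list was also lower in wild-type OBs, in 14 of 15 genes, with a median of -2.74. Its part in these counts was not tested. Il6st, the shared receptor chain of interleukin-6 type cytokines, averaged 1448 ± 162 normalized counts in OBs and 8311 ± 769 in MSCs, at -2.52 ± 0.10 (limma adjusted p = 7.62e-09). Postn, the matrix protein periostin, was lower at -3.45 ± 0.16 (adjusted p = 2.59e-08) and Nrp1, a semaphorin receptor, at -2.81 ± 0.10 (adjusted p = 4.50e-09). Tgfb1, a growth factor stored in bone and released as it is resorbed, was higher at 0.86 ± 0.07 (adjusted p = 1.27e-06), and Tnfsf10, the death ligand TRAIL that osteoprotegerin also binds, averaged 563 ± 52.6 in OBs and 60.6 ± 39.4 in MSCs, at 3.42 ± 0.39 (adjusted p = 1.50e-05).

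Lists of genes that osteoclasts use held members that moved each way. Of 33 RANK signalling genes, 12 were higher and 13 lower in wild-type OBs, with a median of 0.03, beside 34.4% of all genes higher and 35.5% lower, so these counts were near the background. Traf6, the adaptor of RANK, averaged 1613 ± 75.4 normalized counts in OBs and 611 ± 103 in MSCs, at 1.41 ± 0.11 (limma adjusted p = 9.17e-07), and Plcg2, a phospholipase of the calcium signal, was higher at 1.38 ± 0.13. Fos, the AP-1 subunit that osteoclasts need, was lower at -2.58 ± 0.10 (adjusted p = 6.42e-09). Of 14 transcription factors and repressors 3 were higher and 9 lower, with Spi1, the myeloid factor PU.1, at 1.47 ± 0.20. Of 13 fusion genes 3 were higher and 10 lower, and of 20 resorption genes 4 were higher and 11 lower. Car2, the carbonic anhydrase that supplies protons, was higher at 2.82 ± 0.19 and Itgb3, the integrin chain of the sealing zone, at 1.29 ± 0.18, while Mmp14 was lower at -3.34 ± 0.17. Erythroid cells also express Car2, and the erythroid list stood higher in these OBs with 10 of 10 genes; its part was not tested. In deficient mice the counts of higher and lower genes were 7 and 9 of 33 for RANK signalling, 3 and 6 of 14 for the factors, 3 and 8 of 13 for fusion and 5 and 10 of 20 for resorption, beside 29% of all genes higher and 30.6% lower.

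Across the 16 libraries, the genes most alike to each coupling gene were sought among 12574 genes with a mean of at least 50, by Pearson's r of log2(normalized count + 1). The points share the difference between OBs and MSCs, so r describes mainly that difference. Ctsk was most like Tnn (r = 0.995), Htra1 (0.992) and Mmp14 (0.992), and Tnfsf11 most like Cxcl14 (0.984), Plxna2 (0.982) and Ackr4 (0.981). Csf1 was most like Spry1 (0.984), Cfb (0.984) and Cdh11 (0.982), and Tnfrsf11b most like Sep15 (0.976), P4hb (0.973) and Gm17455 (0.973). Acp5 had no such close match, with Gbp9 at 0.856, Ift27 at 0.850 and Slc25a24 at 0.844.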

How the data were processed

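Poly(A) RNA of sorted MSCs and OBs was sequenced from TRIzol lysates with NEBNext kits, per the labels' protocols. The authors deposited 1 normalized signal value per gene symbol and library. DESeq2 1.24.0 and the build mm10 are named in the submitters' processing notes, and the aligner, the read counter, its annotation and any filter were not given in the sources used here. All deposited values (100.0%) were whole multiples, within 0.01, of 1 step per library, so they are counts divided by a size factor (1.27 to 1.54 in OBs, 0.665 to 0.852 in MSCs), and reads were recovered by that step. Replicate libraries differed by more than counting error, at a chi-square divided by its degrees of freedom of 9.92 to 120. Intervals on 0 reads cover counting error only.

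Values were fitted as log2(normalized count + 1) in R 4.3.3 by limma 3.58.1 with its trended empirical Bayes step, over genes of at least 10 in at least 4 of the libraries fitted, and called at a Benjamini-Hochberg adjusted p under 0.05. Fold changes on that scale understate those of low genes. Genotypes were compared within OBs and within MSCs, cell types within each genotype, and the genotype effects over all 16 libraries. The code was tested on simulated data in which only a small set of genes changed. There the fit between genotypes recovered 1.01% of 99 genes changed 2-fold in MSCs and 64.3% of 98 in OBs. The fit of the difference of genotype effects recovered 8.08% of 99. These shares hold for that simulated setting and are not the power of the fits to the data. Those fits called 159 genes between genotypes in MSCs and 4 in OBs. A gene that did not pass is not shown to be unchanged in either cell type. Alternatives were quantile normalization, no filter, a filter at 50, 5 in place of 1 as pseudocount, edgeR 4.0.16 and DESeq2 1.42.0 on recovered reads, 1 fit of all libraries, a replicate block, and leaving libraries out. Levels per kb used the union of exons in GENCODE M21.

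The 10 genes and the 18 gene lists (269 genes, 266 in the table) were chosen with earlier results of these data known. Most genes named beyond the 10 came from a rule: Csf1r and Il34, up to 3 passing genes per list and direction by adjusted p or, where none passed, the smallest p, the 3 genes most alike to each of 5 coupling genes, and Mir9-1, Xist and Ddx3y as checks. Osteoclast genes such as Oscar, Mmp9 and Atp6v0d2 and macrophage genes such as Cd68 and C1qa were picked by hand to describe levels. 1 gene that the rule names is not reported here. Lists with few or no other results in the text, such as neutrophil, T and NK, endothelial and blood progenitor markers, served as checks of composition: set against wild-type MSCs, wild-type OBs had 1, 1, 3 and 10 of their tested genes higher and 9, 0, 1 and 1 lower. Of all genes, 34.4% were higher and 35.5% lower.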

Additional observations from a re-analysis of the deposited data

Results flagged for a closer look

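In 37 sets of 4 libraries of 1 gene in 1 group, 5 held a library whose gap to its nearest neighbour, as a share of the group's range, passed Dixon's 95% critical value, which chance does in about 1 in 20 sets. In wild-type MSCs, Tnfrsf11a was at 31.6 normalized counts in library D, against 7.77 to 11.1 in the other 3. Csf1 was at 1629 in the same library, below 2458 to 2606 in the others. Ctsk was at 7632 in wild-type MSC library A, above 5476 to 5778. Dcstamp was at 4.56 in deficient OB library F and at 5.20 in wild-type OB library B, where the others were at 0 to 0.734, all close to the level of a few reads.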

How the results depend on the processing

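Over 35 results of single coupling genes and 615 alternatives, 596 stayed on their side of the threshold, 15 lost the call and 4 gained one. Of the 596, 38 had the other sign, all of them values that passed in neither fit, and 0 called values changed sign. The count of genes called between genotypes in MSCs was 1; it was 0 with no filter (Acp5 adjusted p = 0.0550), 0 with edgeR and 0 without the muscle-high libraries G and H, where 4 wild-type libraries face a pair. Leaving out 1 library at a time gave 0 to 3, with 3 without library F. Over all genes, the number called in MSCs ranged over 0 (without B) to 2261 (without F) when 1 library was left out, beside 159 with all 8, and was 1196 with DESeq2 and 2246 with 1 fit of all 16 libraries; the causes were not tested. Between cell types in deficient mice the count was 4 and became 2 (Ctsk and Csf1) without MSC libraries G and H, an alternative chosen after seeing the data. In wild-type mice Tnfrsf11a passed with quantile normalization (1.38, adjusted p = 0.0499), which moved the median of all genes to 0.17, and the other 6 kept their calls. In OBs all genes called numbered 4, and 194 with DESeq2. Libraries of the same number deviated together from their group means with r of 0.0822 to 0.416, and 8 of 8 correlated best with their own number, a hint from the data and not from the design. Numbers A, E and F were lowest in Xist and highest in Ddx3y in both cell types. With a replicate block 6 and 4 genes differed between cell types in wild-type and deficient mice and 0 in genotype effect, so the block changed no coupling gene's call. Depth limits Tnfrsf11a, Calcr, Ocstamp and Dcstamp.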
